A study of Mus musculus with 8 samples.

Results

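The mitosis and spindle genes are 45 genes whose proteins carry a cell through division. They were chosen by name for that role, with earlier results of these data known. They comprise 9 cyclins, mitotic kinases and CDC25 phosphatases, 8 kinesins, 8 genes of the centromere, kinetochore and chromosomal passenger complex, 8 of the spindle checkpoint and anaphase, 6 of the spindle midzone and cytokinesis, and 6 of mitotic chromosome structure. A gene was read through the Affymetrix probe sets that carry its symbol alone, and 44 of the 45 genes had at least 1 such probe set, of 18193 symbols on the array. Ccnb1, which encodes cyclin B1, was not analysed here. Kif15, a spindle kinesin gene, had 1 probe set that stayed below the minimum signal for testing, with a log2 signal between 1.32 and 6.41 over the arrays. The other 43 genes were tested among 11292 genes in all.

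The samples were whole, uncultured livers of E14.5 mouse fetuses (E, embryonic day), from 4 wild-type (WT) fetuses and 4 fetuses homozygous for a knockout of Eklf (KO), with 1 array of total RNA for each fetus. Eklf, also called Klf1, encodes the erythroid Krüppel-like factor EKLF, a zinc finger protein of red cell precursors that binds CACCC boxes. The KO line is a B6 line made with a bacterial artificial chromosome that carried an engineered Eklf locus and with E2A-Cre mice, and the knockout is not limited to the red cell lineage. The sources used here do not give the strain of the WT fetuses. No part of the liver was sorted, and each array therefore averages erythroid cells, hepatocytes and other cells. The log2 signal of Klf1 itself fell by 3.29 (SE 0.099, limma adjusted p = 5.9e-07), from 13.87 to 14.04 in WT to 10.56 to 10.81 in KO. The sources used here do not place its probe set within or outside the deleted part of the gene. The titles give the WT arrays one serial prefix and the KO arrays another, and if these mark separate runs, run and genotype cannot be told apart. Over all probe sets the median signal was higher and the top of the range lower in KO, with WT medians of 79.5 to 84.1 beside 96.7 to 114.0, and with highest WT signals of 54914 to 60411 beside 32642 to 39185.

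Entry into mitosis is driven by the kinase CDK1 once a cyclin is bound to it and CDC25 phosphatases have removed its inhibitory phosphates. Kinesins and the kinetochore then attach and align the chromosomes on the spindle, and the checkpoint holds the anaphase-promoting complex until every chromosome is attached. CDC20 then activates the complex so that separase can part the sister chromatids. Most of these transcripts build up in the G2 phase and fall after division. In the fetal liver at this age the erythroid precursors are a large dividing population.

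Most mitosis and spindle genes were lower in the KO fetal liver. Of the 43 genes, 27 were lower and 3 were higher in KO with a limma adjusted p under 0.05, while 13 did not pass the test. That is 62.8% lower and 6.98% higher, where among all genes tested 21.0% were lower and 25.6% were higher. The difference was negative in 39 of the 43 genes, and in 28 of them the KO arrays all lay beneath the WT arrays, an arrangement that 20.9% of all genes tested showed. The median log2 difference (KO minus WT) was -0.40, with a range of -1.22 to 0.43, beside 0.06 for all genes tested. In a bulk sample, fewer dividing cells and less of these RNAs in each dividing cell cannot be told apart.

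The scale of the arrays sets where 0 lies, and it bears on every direction given here. The deposited MAS5.0 signals share a trimmed mean, and the members' median stayed negative after quantile normalization (-0.33), with the arrays set to a common 75th percentile (-0.66) and with them set to the poly-A control transcripts (-0.49). The calls did not all hold. After quantile normalization 18 of the 27 lower members were still called, and Aurka, Cenpa, Nuf2, Cdc20, Tpx2, Nusap1, Ect2, Smc2 and Smc4 were lost. With the poly-A controls 21 were still called, and Aurka, Cenpa, Nuf2, Tpx2, Smc2 and Smc4 were lost. With no filter on low signals 21 were called as well, and with the methods' t-test 24. None of the 3 higher members was called with 75th percentile or poly-A control scaling. With the arrays set to the 18 hybridisation control probe sets every difference moved up by 0.75, the median of all genes became 0.83 and that of the members 0.35, with 2 members lower and 19 higher. Under each of these scalings the members' median lay below that of all genes, which was -0.10, -0.22, -0.03 and 0.83 in the same order. The 75th percentile and control scalings move every probe set of an array alike, and so keep the distance between these medians nearly fixed. Quantile normalization, which can change it, brought them closer, to -0.33 and -0.10 from -0.40 and 0.06 as deposited. Of the 27 members called lower, 13 stayed so on the same probe set in every alternative fit tried other than the hybridisation control scaling. Those fits include the replicate number as a block. The 13 were Cdk1, Ccna2, Cdc25c, Kif18a, Kif23, Birc5, Incenp, Cenpe, Spc25, Mad2l1, Prc1, Top2a and Mki67. Of these, Incenp, Cenpe and Top2a each also had a probe set called higher, and the other probe sets of Cdc25c and Spc25 did not pass. On the same probe set, Cdc25b, Kif2c, Cenpf, Ndc80 and Ncaph lost their calls only with this block and with the hybridisation controls. With the hybridisation controls Kif18a and Birc5 were still called lower.

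**Figure D1:**
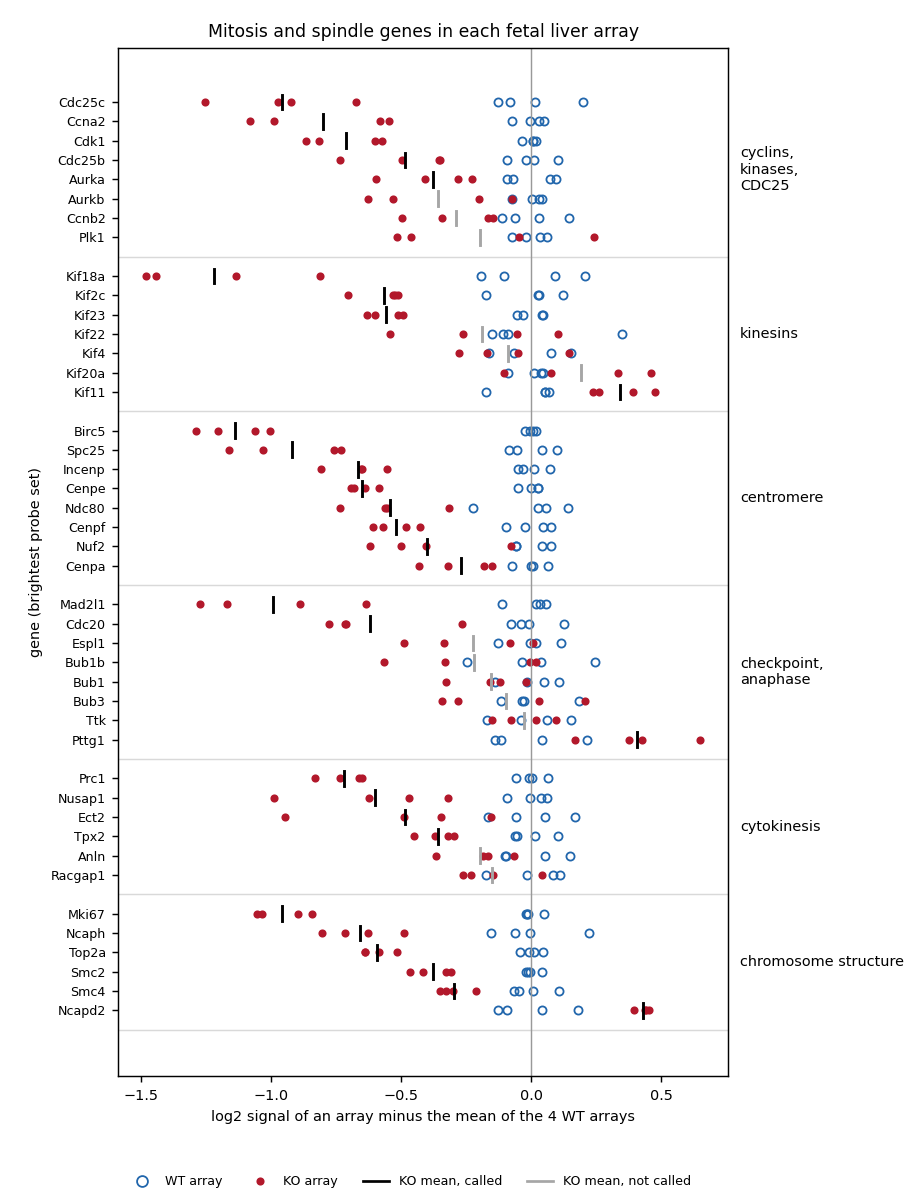
Log2 signal of each array minus the mean of the 4 WT arrays (x axis) for the 43 tested genes (y axis), each through its brightest probe set, with open circles for WT arrays, filled circles for KO arrays and a bar at the KO mean, black where the limma adjusted p was under 0.05 and grey otherwise. The KO means run from -1.22 for Kif18a to 0.43 for Ncapd2, and with hybridisation control scaling every KO mean would lie 0.75 further to the right, which puts most of them above 0.

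The promoters of these genes were read for the letters of 3 elements, in the 250 bases before each transcription start and on both strands, from RefSeq promoters of the mouse build GRCm38.p6. CCAAT is the box bound by NF-Y. TTTGAA and TTCGAA are the letters searched for the CHR element, known from genes of the G2 and M phases. CACCC is the box bound by EKLF. RefSeq held 41 promoters for 38 of the members, and Ccna2, Aurkb, Cdc25c, Kif20a, Incenp, Tpx2 and Smc4 had no entry. CCAAT occurred in 30 of the 41 promoters (73.2%), where 33.8% of all 32851 promoters held it. At least 1 CHR match was present in 18 of them (43.9%, against 17.1% of all promoters), and both elements together in 16 (39.0%, against 6.02%). CACCC was found in 19 promoters (46.3%), against 52.0% of all promoters and 57.5% of the promoters of genes tested here. CCAAT was in 66.7% of the 24 promoters of members called lower and in 86.7% of the 15 promoters of tested members that were not called lower, and CACCC was in 50.0% and 40.0% of them. These are matches of letters, and the matches of different elements overlapped at 1 place, a CCAAT and a CACCC of Cenpe.

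The last 180 bases before the start are shown for 6 members, so that the promoters of 4 members called lower (Cdk1, Top2a, Mki67 and Birc5) can be read beside that of Ccnb2, which did not pass the test, and that of Ncapd2, which was higher. They are Ccnb2 (chr9:70421555-70421734, minus strand), Cdk1 (chr10:69352913-69353092, minus strand), Top2a (chr11:99024190-99024369, minus strand), Mki67 (chr7:135716380-135716559, minus strand), Ncapd2 (chr6:125191587-125191766, minus strand) and Birc5 (chr11:117849057-117849236, plus strand). Each is written 5′ to 3′ on the strand of its gene, with every match on either strand in capitals, so that the reverse complements of the 3 elements are in capitals too.
Ccnb2: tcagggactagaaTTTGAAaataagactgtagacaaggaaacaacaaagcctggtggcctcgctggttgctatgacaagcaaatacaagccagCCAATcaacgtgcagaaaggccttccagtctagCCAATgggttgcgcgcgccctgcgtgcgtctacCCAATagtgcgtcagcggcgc
Cdk1: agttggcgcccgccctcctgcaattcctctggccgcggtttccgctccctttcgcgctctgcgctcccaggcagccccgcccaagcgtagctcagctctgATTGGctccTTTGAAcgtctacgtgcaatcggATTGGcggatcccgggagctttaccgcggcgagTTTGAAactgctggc
Top2a: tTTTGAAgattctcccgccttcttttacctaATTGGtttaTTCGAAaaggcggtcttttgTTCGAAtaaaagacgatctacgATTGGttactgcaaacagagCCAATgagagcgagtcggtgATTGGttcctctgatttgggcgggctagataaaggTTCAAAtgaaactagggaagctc
Mki67: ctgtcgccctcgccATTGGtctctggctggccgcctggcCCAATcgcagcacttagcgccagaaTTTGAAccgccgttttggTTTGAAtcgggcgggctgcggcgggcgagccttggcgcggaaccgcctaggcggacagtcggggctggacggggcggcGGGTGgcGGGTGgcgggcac
Ncapd2: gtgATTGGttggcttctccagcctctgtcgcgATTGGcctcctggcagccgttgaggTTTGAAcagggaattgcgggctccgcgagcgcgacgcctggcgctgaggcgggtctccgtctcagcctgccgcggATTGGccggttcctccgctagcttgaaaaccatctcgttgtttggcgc
Birc5: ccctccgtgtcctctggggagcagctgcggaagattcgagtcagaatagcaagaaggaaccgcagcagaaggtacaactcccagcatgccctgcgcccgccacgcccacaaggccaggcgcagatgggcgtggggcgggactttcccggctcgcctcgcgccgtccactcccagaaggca
Ccnb2, Cdk1, Top2a and Mki67 each show CCAAT and CHR letters, with 3 CCAAT boxes set 33 bases apart in Ccnb2 and 4 CHR matches in Top2a. Ncapd2, which was higher in KO, shows the same kinds of letters, with 3 CCAAT boxes and 1 CHR match. Birc5, among the members that fell most, had no CCAAT or CHR letters in the 250 bases searched, and its 1 CACCC box, at -182 to -178 from the start, is cut off by the edge of the stretch shown.

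**Figure D2:**
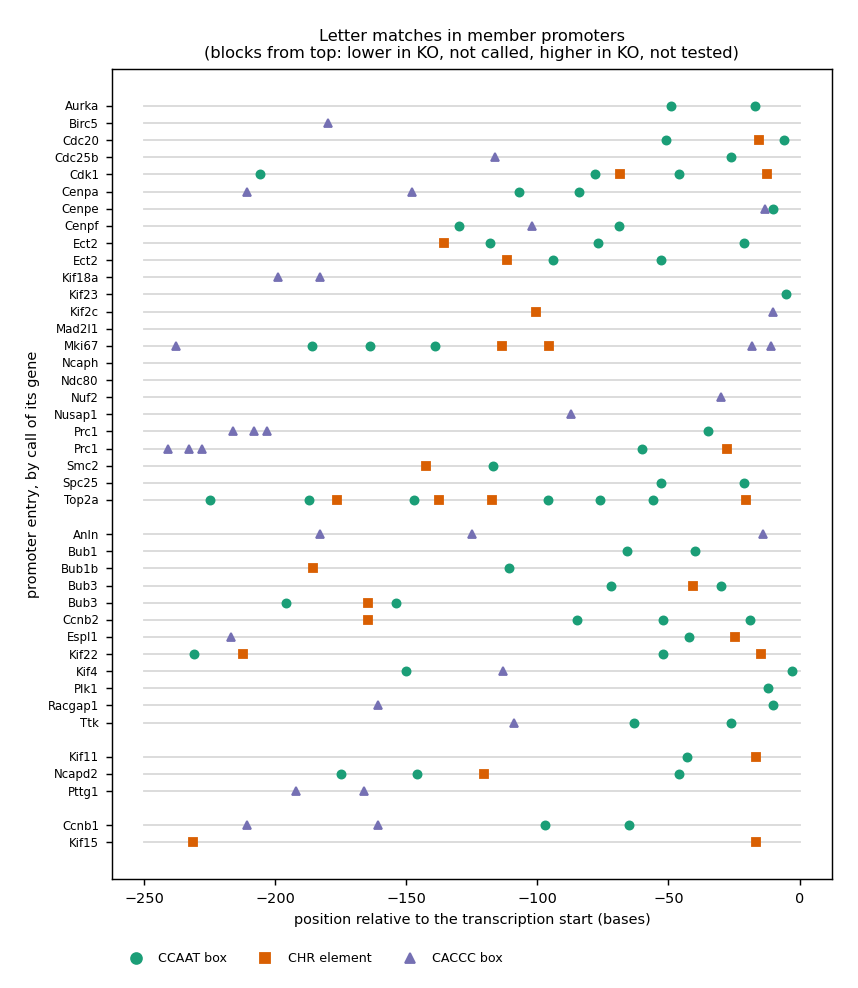
Positions of CCAAT, CHR and CACCC letters (symbols) in the 250 bases before the transcription start (x axis, in bases from the start) for 41 promoters of 38 members (y axis), in blocks by the call of the gene on the deposited scale. CCAAT symbols stand in 16 of the 24 promoters of members lower in KO and in 13 of the 15 promoters of the other tested members.

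The genes that drive entry into mitosis were lower, with a median log2 difference of -0.43 over 8 genes, but of 0.32 when scaled to the hybridisation controls. Of these genes 5 were called lower (62.5%) and none higher, beside 21.0% and 25.6% of all genes tested. Readings of single arrays are log2 signals in the order of WT replicates 1 to 4 and then KO replicates 2 to 5. Cdk1, the kinase of mitotic entry, read 12.99, 12.95, 13.00 and 12.99 in WT and 12.41, 12.17, 12.38 and 12.12 in KO. The KO arrays stood at 61.0% of WT (log2 difference -0.71, SE 0.10, limma adjusted p = 6e-04), with no overlap of the groups and a wider spread in KO (SD 0.15) than in WT (SD 0.024). Ccna2, which encodes cyclin A2, the partner of CDK2 in S phase and of CDK1 in G2, read 13.54, 13.44, 13.56 and 13.51 in WT and 12.93, 12.43, 12.96 and 12.52 in KO. This was a fall to 57.4% of WT (-0.80, SE 0.14, limma adjusted p = 0.0018), and its other probe set also fell (-0.57, adjusted p = 0.013). Ccnb2, the gene of cyclin B2, read 12.96, 12.75, 12.70 and 12.84 in WT and 12.65, 12.47, 12.66 and 12.31 in KO. Its groups did not overlap, yet the highest KO array lay just under the lowest WT array, and the difference of -0.29 did not pass (limma adjusted p = 0.066). Within each array the log2 signal of Ccna2 exceeded that of Ccnb2 by 0.59 to 0.86 in WT and by -0.04 to 0.30 in KO. The groups did not overlap in this quantity, which does not depend on the scale of the array and was not tested. Over all genes the median difference ran from 0.24 below a mean log2 signal of 8 to -0.33 above 12. The part of signal level in such comparisons of genes was not tested.

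The other 3 mitotic kinases had smaller differences than Cdk1, and these were not tested against it. Aurka, the kinase of centrosomes and spindle poles, read 11.96, 11.94, 11.77 and 11.80 in WT and 11.59, 11.46, 11.64 and 11.27 in KO, a fall to 77.0% of WT (limma adjusted p = 0.022, but 0.12 after quantile normalization and 0.06 without WT replicate 1 and without WT replicate 2). Aurkb, the kinase of the chromosomal passenger complex, read 11.17, 11.07, 11.15 and 11.19 in WT and 11.07, 10.52, 10.94 and 10.61 in KO on its brightest probe set. There the highest KO array came within rounding of the lowest WT array and the difference of -0.36 did not pass (limma adjusted p = 0.055), while the other probe set of Aurkb fell by 0.54 (adjusted p = 0.0033). Without KO replicate 2 or KO replicate 4 the brightest passed too, at -0.45 and -0.41 (limma adjusted p of 0.02 and 0.049). Plk1, the polo-like kinase of spindle assembly, read 10.40, 10.53, 10.51 and 10.45 in WT and 10.43, 10.01, 10.72 and 9.96 in KO. Its KO arrays lay on both sides of the WT arrays, and the difference of -0.20 did not pass (limma adjusted p = 0.36). The log2 signal of Cdk1 exceeded that of Plk1 by 2.41 to 2.59 in WT arrays and by 1.67 to 2.16 in KO arrays. The groups did not overlap in this quantity, which restates the differences of the 2 genes and was not tested. For Aurkb minus Aurka the groups did overlap, with -0.87 to -0.61 in WT arrays and -0.94 to -0.52 in KO arrays. Of the CDC25 phosphatases, Cdc25b fell to 71.5% of WT (limma adjusted p = 0.0077). Cdc25c read 9.95, 9.67, 9.76 and 9.62 in WT and 9.08, 8.82, 8.78 and 8.49 in KO on its brightest probe set, a fall to 51.5% of WT (limma adjusted p = 6.8e-04). Its other probe set, with a mean of 8.73 in WT and 8.66 in KO, did not show this (-0.07, adjusted p = 0.78).

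Among 7 kinesin genes 3 were lower (42.9%) and 1 was higher (14.3%), beside 21.0% and 25.6% of all genes tested. Their median was -0.19, but 0.56 under hybridisation control scaling. Kif18a, a kinesin that damps chromosome movement at microtubule ends, had the largest fall of all members. It read 10.66, 10.97, 10.58 and 10.86 in WT and 9.63, 9.95, 9.32 and 9.29 in KO, and so fell to 43.0% of WT with the groups well apart (-1.22, SE 0.17, limma adjusted p = 5.1e-04). Kif23, a motor of the central spindle, fell to 67.9% of WT (limma adjusted p = 0.001) and its other tested probe set fell by 1.15 (adjusted p = 9.8e-04). Kif2c, a kinesin that takes microtubules apart at centromeres, gave readings that depended on the probe set. Its brightest read 11.31, 11.31, 11.11 and 11.40 in WT and 10.77, 10.76, 10.58 and 10.75 in KO, a fall by 0.57 (limma adjusted p = 0.0021). Another read 8.29, 8.04, 8.46 and 8.46 in WT and 9.22, 9.14, 9.35 and 8.92 in KO, a rise of 0.85 (limma adjusted p = 0.0011), and the other two differed by 0.11 and 0.35 and did not pass. Kif11, the motor that pushes the spindle poles apart, was higher by 0.34 (limma adjusted p = 0.024) on its brightest probe set, while its others stood at -0.15 and 0.36 and did not pass. Without WT replicate 3 or KO replicate 3 the brightest missed the threshold as well (limma adjusted p of 0.069 and 0.058). Kif20a, which brings the passenger complex to the midzone, stood at 0.19, and the chromosome-bound kinesins Kif4 and Kif22 at -0.09 and -0.19, all with groups that overlapped. A second probe set of Kif22 fell by 0.63 (limma adjusted p = 0.0017).

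All 8 genes of the centromere, kinetochore and chromosomal passenger complex were lower, beside 21.0% lower and 25.6% higher among all genes tested. The groups did not overlap in any of the 8, and 20.9% of all genes tested were separated in this direction. The 8 genes are bright, with mean log2 signals above 10. Among all genes, 27.1% of those between 10 and 12 and 51.1% of those above 12 were lower. The median of these 8 genes, -0.60, was the lowest of the 6 groups, though with the hybridisation controls it was 0.15. Birc5, which encodes survivin, a passenger protein and inhibitor of apoptosis, had the smallest adjusted p of the members. It read 13.69, 13.64, 13.68 and 13.66 in WT (mean 13.67 ± 0.019, SD, n = 4) and 12.66, 12.38, 12.61 and 12.46 in KO (12.53 ± 0.13, SD, n = 4), a fall to 45.4% of WT (-1.14, SE 0.099, limma adjusted p = 4.2e-05). Incenp, the scaffold of the same complex, read 13.61, 13.56, 13.67 and 13.55 in WT and 13.04, 12.94, 12.95 and 12.79 in KO on its brightest probe set, a fall to 63.0% of WT (limma adjusted p = 5.8e-04), and a second probe set also fell (-0.65, adjusted p = 7.1e-04). A dim probe set of Incenp was called higher (limma adjusted p = 4.8e-04), with 5.25, 5.14, 5.57 and 3.69 in WT and 7.85, 7.58, 7.54 and 7.31 in KO. Its WT mean of 4.91 lay below the minimum signal of 100, so that it was tested through KO alone and had to differ, and its fold against that minimum is at least 1.90. The last of the 4 probe sets of Incenp stood at 0.26 (limma adjusted p = 0.17).

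Among the kinetochore genes, Spc25, a subunit of the NDC80 complex that binds microtubules, read 12.27, 12.46, 12.30 and 12.40 in WT and 11.60, 11.19, 11.63 and 11.33 in KO, a fall to 52.8% of WT (-0.92, SE 0.13, limma adjusted p = 4.3e-04). The other subunits measured, Ndc80 and Nuf2, fell by 0.54 (limma adjusted p = 0.0069) and by 0.40 (adjusted p = 0.029). Cenpe, the kinesin of the kinetochore, read 11.57, 11.55, 11.50 and 11.57 in WT and 10.96, 10.86, 10.91 and 10.85 in KO (-0.65, limma adjusted p = 3.8e-04), with a narrow spread in both groups. A dimmer probe set of Cenpe rose by 1.11 (limma adjusted p = 0.001), from 7.32, 7.03, 6.94 and 7.30 to 8.31, 8.56, 8.38 and 7.79. Cenpf, a large protein of the outer kinetochore, fell by 0.52 (limma adjusted p = 0.002). Cenpa, the histone H3 variant that marks centromeres, read 12.30, 12.38, 12.38 and 12.44 in WT and 12.22, 12.19, 12.06 and 11.94 in KO. Its fall of 0.27 was the smallest of the group and passed by a narrow margin (limma adjusted p = 0.05 after rounding). A dim probe set of Cenpa was called higher (limma adjusted p = 5.7e-05), with 5.79, 5.95, 5.84 and 6.91 in WT and 8.87, 9.22, 8.94 and 8.61 in KO. It too was tested through KO alone, as its WT mean of 6.12 lay below the minimum, and its fold against the minimum is at least 4.81. The calls of Cenpa and Nuf2 were lost after quantile normalization (limma adjusted p of 0.57 and 0.065) and on leaving out any single array other than KO replicate 2, with limma adjusted p of 0.053 to 0.12 for Cenpa and of 0.05, rounded, to 0.074 for Nuf2.

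Of 8 genes of the spindle checkpoint and anaphase, 2 were lower (25.0%), 1 was higher (12.5%) and 5 did not pass. Over all genes tested 21.0% were lower and 25.6% were higher, so the share of lower genes in this group was near that of all genes. The median of the group was -0.19, and it was 0.56 with the hybridisation controls. Mad2l1, which encodes the checkpoint protein MAD2, read 13.21, 13.18, 13.17 and 13.04 in WT and 12.52, 11.88, 12.26 and 11.98 in KO, a fall to 50.3% of WT (-0.99, SE 0.15, limma adjusted p = 7.2e-04). Cdc20, which activates the anaphase-promoting complex, read 13.39, 13.46, 13.59 and 13.43 in WT and 13.20, 12.69, 12.75 and 12.75 in KO, a fall to 65.1% of WT (limma adjusted p = 0.0046), with KO replicate 2 well above the other KO arrays. After quantile normalization the difference of Cdc20 was -0.31 and did not pass (limma adjusted p = 0.086). The remaining checkpoint genes, which encode the kinases BUB1 and TTK, the BUB1-related BUBR1 and their partner BUB3, all had overlapping groups on their brightest probe sets. Their differences were -0.16 for Bub1, -0.03 for Ttk, -0.22 for Bub1b and -0.10 for Bub3, and none passed (limma adjusted p of 0.25, 0.84, 0.29 and 0.6). Dim probe sets of Ttk and Bub3 rose by 0.89 (limma adjusted p = 5.1e-04) and by 0.67 (adjusted p = 0.0031). The log2 signal of Mki67, taken as a proliferation marker that fell, exceeded that of Bub3 by 2.04 to 2.27 in WT arrays and by 1.12 to 1.48 in KO arrays. As Mki67 was taken for its fall and Bub3 did not pass, this separation restates their own differences. It was not tested, nor was the part of their unlike signal levels. Pttg1, the securin that holds separase inactive, was higher by 0.41 (limma adjusted p = 0.032), although its groups overlapped and leaving out WT replicate 1, 2 or 4, or replicate 2, 4 or 5 of KO, ended its call (adjusted p of 0.052 to 0.085). Espl1, the gene of separase itself, stood at -0.22 (limma adjusted p = 0.18).

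Of 6 genes of the spindle midzone and cytokinesis 4 were lower (66.7%) and none was higher, beside 21.0% and 25.6% of all genes tested. Their median of -0.42 became 0.33 with the hybridisation controls. Prc1, which bundles the antiparallel microtubules of the midzone, read 11.65, 11.53, 11.58 and 11.59 in WT and 10.94, 10.76, 10.93 and 10.85 in KO, a fall to 60.7% of WT (-0.72, SE 0.092, limma adjusted p = 3.1e-04), and its other probe set fell by 0.68 (adjusted p = 0.014). Nusap1, a spindle protein that links microtubules, read 12.85, 12.87, 12.72 and 12.81 in WT and 12.19, 12.49, 11.83 and 12.34 in KO, a fall to 65.9% of WT (limma adjusted p = 0.0086, but -0.37 and 0.079 after quantile normalization). Its KO arrays spread widely (SD 0.29) and none of them reached the WT arrays. Tpx2, an activator of Aurora A on the spindle, fell by 0.36 (limma adjusted p = 0.011, but 0.066 after quantile normalization). Ect2, the exchange factor that switches on RhoA at the cleavage furrow, fell by 0.48 (limma adjusted p = 0.042) with KO replicate 3 above the lowest WT array, and it missed the threshold when WT replicate 1, 2 or 4, or replicate 2, 4 or 5 of KO, was left out (adjusted p of 0.053 to 0.1). Racgap1, the partner of Kif23 in the central spindle, stood at -0.15 and Anln, the gene of the furrow protein anillin, at -0.20, and neither passed (limma adjusted p of 0.29 and 0.16).

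The 6 genes of mitotic chromosome structure had 5 lower (83.3%) and 1 higher (16.7%), beside 21.0% and 25.6% of all genes tested. Their median was -0.49, but -0.18 after quantile normalization and 0.26 with the hybridisation controls. Mki67, which encodes the Ki-67 coat protein of mitotic chromosomes and marks cycling cells, read 14.72, 14.72, 14.79 and 14.72 in WT (mean 14.74 ± 0.032, SD, n = 4) and 13.84, 13.70, 13.90 and 13.68 in KO (13.78 ± 0.10, SD, n = 4). It fell to 51.5% of WT (-0.96, SE 0.094, limma adjusted p = 8.1e-05). Top2a, the topoisomerase that untangles sister chromatids, read 13.63, 13.72, 13.68 and 13.66 in WT and 13.16, 13.03, 13.03 and 13.09 in KO, a fall to 66.2% of WT (limma adjusted p = 6.4e-04). A dimmer probe set of Top2a rose by 0.88 (limma adjusted p = 8.2e-04), from 9.29, 9.19, 9.12 and 9.17 to 10.18, 9.86, 10.38 and 9.88, so that both probe sets separated the groups but in opposite directions.

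The condensin genes, whose products fold chromosomes for division, did not move as 1 unit. Smc2, a core ATPase of condensin, fell by 0.38 (limma adjusted p = 0.0069) on its brightest probe set, which read 13.21, 13.15, 13.17 and 13.16 in WT and 12.87, 12.75, 12.85 and 12.71 in KO. After quantile normalization this was -0.10 (limma adjusted p = 0.36), and with the poly-A controls the call was lost too (adjusted p = 0.076). On 2 other probe sets Smc2 rose by 1.06 and 0.80 (limma adjusted p of 9.3e-04 and 0.003), and on a further one it stood at 0.52 (adjusted p = 0.074). The last, with a WT mean of 5.76 below the minimum and so tested through KO alone, was called higher (limma adjusted p = 0.037) with a fold of at least 1.27. This call was lost when WT replicate 3 or 4, or replicate 3, 4 or 5 of KO, was left out (limma adjusted p of 0.075 to 0.095). The brightest of these 4 read 8.75, 8.77, 8.38 and 8.69 in WT and 9.61, 9.65, 9.50 and 9.06 in KO. Smc4, the other core ATPase, fell by 0.30 (limma adjusted p = 0.023, but 0.07 without WT replicate 1, 0.055 without WT replicate 3 and 0.13 with the poly-A controls) on a probe set that read 13.42, 13.25, 13.33 and 13.27 in WT and 12.99, 12.97, 13.11 and 13.02 in KO. After quantile normalization Smc4 stood at 0.014 on this probe set. A second one, not a dim one, read 11.29, 11.29, 11.29 and 11.31 in WT and 12.03, 12.39, 11.50 and 12.12 in KO, and thus rose by 0.72 (limma adjusted p = 0.0083). Ncaph, a condensin I subunit, read 12.69, 12.40, 12.31 and 12.46 in WT and 11.84, 11.98, 11.66 and 11.75 in KO, and fell by 0.66 (limma adjusted p = 0.002), whereas its other probe set stood at -0.19 (adjusted p = 0.27). Ncapd2, another condensin I subunit, read 11.19, 11.02, 11.06 and 11.33 in WT and 11.55, 11.59, 11.60 and 11.60 in KO. It rose to 135% of WT (limma adjusted p = 0.0071), and its other probe set rose by 0.91 (adjusted p = 0.0047), which makes it 1 of 2 members, with Pttg1, that had more than 1 probe set called higher and none lower.

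Probe sets of the same gene often disagreed, and they did so along the signal. Of 27 members with more than 1 tested probe set, 7 were called in both directions (Kif2c, Incenp, Cenpa, Cenpe, Top2a, Smc2 and Smc4), 16 in a single direction and 4 in none. In all 7 the brightest probe set was lower. In Incenp and Cenpa the probe set called higher had passed the minimum signal in KO alone, and a probe set that enters in this way had to differ. The filter thus adds rises among dim probe sets, since 3075 probe sets of the array passed in KO alone and 857 in WT alone. Among the members 8 probe sets passed in KO alone, 3 of them called higher (37.5%), beside 80.6% of all probe sets that passed in this way. Of the 36 others that were not the brightest of their gene and passed in both groups, 10 were higher (27.8%) and 8 were lower (22.2%). These shares were near those of all probe sets that passed in both groups, 28.7% higher and 18.8% lower. For all probe sets that passed in both groups with a mean log2 signal below 8, 30.5% were higher and 8.16% lower, and of the 8 such probe sets of members 4 were higher and none lower. Above 12, 52.3% of all tested probe sets were lower. The members are bright genes, so their share of falls was set beside genes of like signal. For a brightest probe set between 10 and 12, 13 of 24 members were lower (54.2%) beside 27.1% of all genes. Above 12, 13 of 17 members were lower (76.5%) beside 51.1% of all genes. The part of signal level in these differences was not tested.

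**Figure D3:**
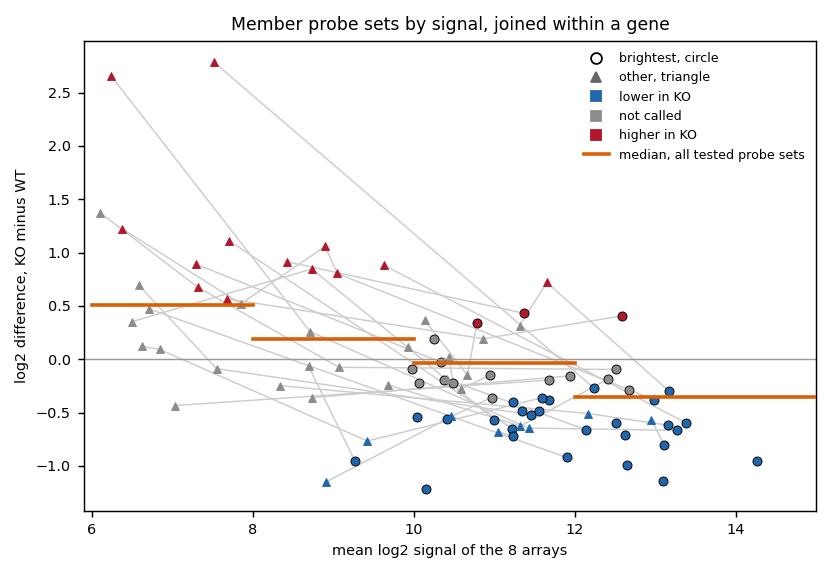
Log2 difference, KO minus WT (y axis), against the mean log2 signal of the 8 arrays (x axis) for the 87 tested probe sets of the members (8 of the dim ones passed the minimum signal in KO alone, and their height is no measured size), with circles for the brightest of each gene, triangles for the others, grey lines joining probe sets of a gene, and blue or red for a limma call lower or higher. The orange lines are medians of all tested probe sets in 4 ranges of signal and run from 0.50 below 8 to -0.35 above 12, and with hybridisation control scaling all points and lines would move up by 0.75.

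A suffix in the probe set name marks probes that can also match other transcripts (_x_at and _s_at). When such probe sets were left out, a choice made after seeing the data, 24 of 42 members were lower (57.1%) and 2 higher, with a median of -0.37, beside 20.2% lower and 26.4% higher over all genes read in this way. Cdc25c, Kif2c and Ncaph then lost their calls, with differences of -0.07, 0.11 and -0.19, as did Pttg1 with 0.19 (limma adjusted p of 0.78, 0.44, 0.27 and 0.1). The calls of Cdc20, Incenp and Prc1 on probe sets without these suffixes were lower, at -0.51, -0.65 and -0.68 (limma adjusted p of 0.028, 7.1e-04 and 0.014).

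**Figure D4:**
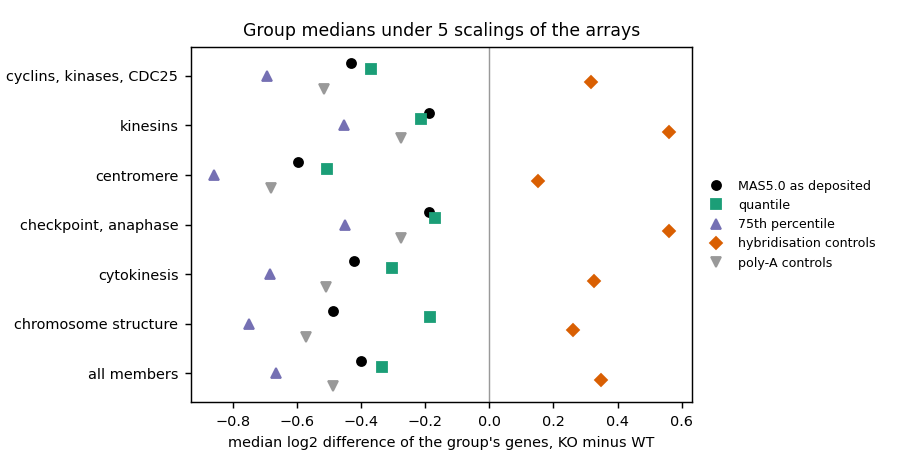
For each group and for all 43 members (y axis), the median over tested genes of the log2 difference between KO and WT (x axis) on the deposited MAS5.0 scale and under 4 other scalings of the arrays. All 6 groups lie below 0 on the deposited scale and with quantile, 75th percentile and poly-A control scaling, and all 6 lie above 0 with hybridisation control scaling, from 0.15 for the centromere group to 0.56 for the kinesins and the checkpoint group.

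Within the KO group the arrays differed in the depth of the fall. The median deviation of the members from the WT mean was -0.32, -0.49, -0.36 and -0.50 in KO replicates 2 to 5, while it lay between -0.01 and 0.03 in the WT arrays. Of the 43 members, 31, 36, 31 and 37 read below the lowest WT array in these KO arrays. In 22 members (51.2%) both KO replicate 3 and KO replicate 5 read below replicates 2 and 4, an order that 31.7% of all genes tested showed, and in 3 members (6.98%) both read above, beside 27.6% of all genes. KO replicates 3 and 5 are those with the lowest member medians, so the larger share among the members follows in part from that choice. Ccna2 and Plk1 had the first order, and Nusap1 and Ect2 the second. The labels give no difference between these KO fetuses.

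Other cells of the liver also read differently between the groups. All 7 tested markers of erythroid cells were lower, and their signals summed to 109881 to 114712 per WT array and 44644 to 47962 per KO array. The 43 mitosis and spindle genes summed to 228786 to 233748 per WT array and 153300 to 172757 per KO array. For hepatocytes 6 of 9 markers were lower and 1 was higher, with sums of 221676 to 245852 and 142713 to 176301. Of 7 stem and progenitor markers 3 were higher and none lower (12663 to 13511 and 18785 to 25214). Megakaryocyte markers (4 of 6 higher, 23324 to 26552 and 27722 to 35494) and endothelial markers (6 of 8 higher, 4977 to 5466 and 6253 to 7725) also had no member lower, and of 10 macrophage markers 1 was lower (16647 to 20783 and 12041 to 26375). Beside these counts, 21.0% of all genes tested were lower and 25.6% were higher. None of these markers was at 0 in all arrays. Their part in the fall of the mitosis genes was not tested.

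A wider list held other genes of mitosis. Of these 112 genes of the spindle, kinetochore, anaphase-promoting complex and cohesin, 109 were tested, and 43 were lower (39.4%) and 14 higher (12.8%). Over all genes tested these shares were 21.0% and 25.6%. The median of the wider list was -0.25, and it was 0.50 with the hybridisation controls. The largest falls called were those of Mybl2, a transcription factor of late cell cycle genes (-1.32, limma adjusted p = 1.9e-04), Ube2c, the ubiquitin-conjugating enzyme of the anaphase-promoting complex (-1.31, adjusted p = 4.7e-05), and Fbxo5, an inhibitor of that complex (-1.23, adjusted p = 1.6e-04). The largest rises were those of Bora, a cofactor in the activation of Plk1 (1.96, limma adjusted p = 1.3e-05), Pds5a, a regulator of cohesin (1.77, adjusted p = 1.5e-05), and Cep55, a midbody protein of abscission (1.23, adjusted p = 8.4e-05). Genes of DNA replication, the preceding step of the cycle, were lower in 33 of 45 (73.3%) and higher in 1, with a median of -0.68 beside the -0.40 of the mitosis and spindle genes, and with the hybridisation controls these medians were 0.06 and 0.35. The difference between these lists was not tested.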

How the data were processed

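RNA of 4 WT and 4 KO E14.5 fetal livers was hybridised by the authors to Affymetrix mouse genome arrays of 45101 probe sets. The deposited values are MAS5.0 signal intensities on a linear scale, made, by the submitters' processing notes, with MAS5 and R 3.0.2. In the deposited intensities the mean without the lowest and highest 2% was 500.0 in all 8 arrays. Arrays hold no counts, so their number limits the precision. The titles number the WT arrays 1 to 4 and the KO arrays 2 to 5, and no 2 arrays shared more than 1 identical value.

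Intensities were log2-transformed with no pseudocount, and limma 3.58.1 in R 4.3.3 (lmFit and eBayes, two-sided, genotype as the only term, Benjamini-Hochberg over all probe sets tested) was run on the 23379 probe sets whose WT mean or KO mean exceeded a signal of 100 on that scale. Control probe sets and probe sets with several symbols or none were not used for genes. The platform annotation paired 34945 probe sets with 1 symbol, and it can be old. Each gene is read through its brightest probe set, by the mean of the 8 arrays. The fit was tested on simulated data. Summaries and figures were made with Python 3.11.15, pandas 2.3.3, numpy 2.4.6, scipy 1.17.1 and matplotlib 3.10.9.

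The members and gene lists were chosen with earlier results of these data known. By rule, in each group the 2 genes with the largest difference, every gene with probe sets called both ways, and Ccnb2, Cdk1, Plk1, Aurka, Aurkb, Top2a and Mki67 were given with all arrays, and of the wider list the 3 largest called rises and falls were named. The alternatives were 4 other scalings, 16 or 64 added before the log, no filter, filters by the overall mean or at a signal of 200, limma with trend or robust set, the methods' t-test with Benjamini-Hochberg adjustment, the replicate number as a block, each array left out, and all tested probe sets of a gene. Leaving out _x_at and _s_at probe sets was added after seeing the data. No protein sequences were used here.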

Additional observations from a re-analysis of the deposited data

Results flagged for a closer look

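Of 120 sets of 4 arrays looked at, one for each named probe set in each group, 9 had an array that lay far from the other 3, where chance alone gives about 1 in 20. In 3 of them a KO array stood apart. Cdc20 read 13.20 in KO replicate 2, above 12.69 to 12.75 in the other KO arrays. Kif2c read 10.58 in KO replicate 4, below 10.75 to 10.77. Bora read 11.05 in KO replicate 3, above 10.73 to 10.78. The other 6 concerned WT arrays. Kif11 read 10.44 in WT replicate 3, below 10.67 to 10.68, and this low array takes part in the difference reported for Kif11, which was 0.28 without it. Mki67 read 14.79 in WT replicate 3, above 14.72 in the others. Kif22 read 12.85 in WT replicate 4, above 12.35 to 12.41. The second probe set of Incenp that fell read 11.87 in WT replicate 1, above 11.70 to 11.72. The dim probe set of Cenpa called higher read 6.91 in WT replicate 4, above 5.79 to 5.95, and the probe set of Smc4 that rose read 11.31 in the same array, above 11.29 in the others.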

How the results depend on the processing

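Scaling to the hybridisation controls changed most results. It gave 2 members lower and 19 higher (median 0.35), 4 genes of the wider list lower and 61 higher (0.50) and 4 replication genes lower and 10 higher (0.064). It turned the log2 difference of Cdk1 (0.034), Prc1 (0.028), Incenp (0.081, and 0.10 on its second lower probe set), Ncaph (0.088), Cenpe (0.098), Cdc20 (0.13), Nusap1 (0.15), Top2a (0.15), Kif2c (0.18), Kif23 (0.19), Ndc80 (0.21), Cenpf (0.23), Cdc25b (0.26), Ect2 (0.26), Nuf2 (0.35), Aurka (0.37), Smc2 (0.37), Aurkb (0.39), Tpx2 (0.39), Smc4 (0.45), Ccnb2 (0.46), Cenpa (0.48), Espl1 (0.52), Bub1b (0.53), Plk1 (0.55), Anln (0.55), Kif22 (0.56), Bub1 (0.59), Racgap1 (0.60), Bub3 (0.65), Kif4 (0.66) and Ttk (0.72). Why the hybridisation controls read lower in KO was not tested.

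With 75th percentile scaling 35 members were lower and 0 higher (median -0.66), 75 of the wider list lower and 6 higher (-0.51) and 0 replication genes higher (-0.95), and Kif20a turned to -0.074. Quantile normalization gave a replication median of -0.56 and turned Bub1 (0.0057), Bub3 (0.13), Kif22 (0.020) and Smc4 (0.014), all small. Over all genes the share of calls that were higher was 54.9% as deposited, 38.3% after quantile normalization, 25.7%, 96.7% and 50.4% with 75th percentile, hybridisation and poly-A control scaling. Poly-A control scaling left 0 members, 6 genes of the wider list and 0 replication genes higher. With no filter 1 member and 8 genes of the wider list were higher. The trend option and the methods' t-test each gave 2 replication genes higher. Where a gene took all of its tested probe sets, 5 members (median -0.26), 29 genes of the wider list (-0.077) and 2 replication genes were higher. Pseudocounts, the other filters and the robust option kept every count and median of the lists within 1.5 times.

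Deviations of same-numbered arrays correlated at -0.0008, -0.082 and -0.027, and those of WT replicate 3 and KO replicate 4 at 0.084. These values show no pairing by replicate number, but correlations this small cannot exclude it. With the number as a replicate block, 13 members were lower and 0 higher (median -0.39), 24 and 6 of the wider list and 21 and 0 replication genes, and Kif4 (0.025) and Ttk (0.063) turned. All arrays were in that fit, but only those of the 3 shared numbers inform the difference between the groups. Leaving out 1 array gave 22 to 27 members lower and 2 higher, with medians of -0.48 to -0.37, 39 to 46 of the wider list lower and 9 (without WT replicate 4) to 16 higher, and 30 to 35 replication genes lower. Ttk ranged from -0.085 to 0.022. Dim probe sets of Incenp and Smc2 called higher were not tested under the stricter filters.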
